A study of Mus musculus with 4 samples.

Results

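The BCL2 family decides whether a stressed cell opens its mitochondria and dies, and 10 of its genes are described here in Nf2-deficient mouse Schwann cells, grown in culture or as tumours, with and without the HSP90 inhibitor NXD30001. The members were chosen by symbol as Bcl2, Bcl2l1, Mcl1, Bax, Bak1, Bid, Bcl2l11, Bmf, Bbc3 and Pmaip1, out of 35604 gene rows in each of 2 deposited tables. All 10 were found once in each table with the authors' status OK. At a minimum of 1 FPKM in either library, 8 of the 10 were compared in culture and 10 in tumours. FPKM, the unit of all levels, divides the fragments of a gene by its transcript length and by the library's mapped fragments, so that genes of different length can be compared inside a library.

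All 4 samples come from ESC-FC1801, a line of embryonic Schwann cells on the FVB/N background with the genotype Nf2Flox/Flox, in which Nf2 was deleted in culture with a Cre adenovirus, so the untreated groups lack Nf2 as well. Cultured cells, kept without serum in N2 medium with Neuregulin-β1 and forskolin, were exposed for 24 h to DMSO or to NXD30001 at 1 µM. Mice carrying an ESC-FC1801 tumour were dosed 3 times a week, over 4 weeks, with vehicle or with NXD30001 at 100 mg/kg. The sample type field of the labels names cultured cells for all 4 samples, while titles, sources and treatments place 2 of them in mice, and the latter were followed. There was 1 library in each of the 4 groups. Whether the line is 1 clone, the age and strain of the mice and any pooling of tumours are not given in the sources used here, and a tumour piece also holds host cells whose Nf2 is intact. Since each group is a single library, no replicate error exists and no test was run, so "higher" and "lower" describe these libraries and not the treatments.

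In healthy cells the survival proteins BCL2, BCL-XL (from Bcl2l1) and MCL1 hold the pore-forming effectors BAX and BAK in check at the outer mitochondrial membrane. BH3-only proteins such as BIM (from Bcl2l11), BID, BMF, PUMA (from Bbc3) and NOXA (from Pmaip1) bind the survival proteins or activate the effectors, which then release cytochrome c and switch on caspases. In Schwann cells, survival signals from neuregulin and from the axon act upstream of this balance. Much of the control of the family lies in protein binding, cleavage and turnover, which RNA levels do not show.

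A few members differed by 2-fold or more in each comparison, and Bid did so in both, in opposite directions. Here and below, 2-fold is counted on the log2(FPKM + 1) scale, as a difference of at least 1, which is stricter for low genes than a ratio of FPKM. As ratios of FPKM, in culture Bcl2l11 was 7.15 times lower and Bid 2.89 times lower in treated cells, while Bax was 3.30 times higher. In tumours, Bid was 2.28 times and Bbc3 2.11 times higher in the treated library. Pmaip1 had the widest tumour ratio of the members, 6.77 times lower, but at 1.32 and 0.194 FPKM it was not past 2-fold on the log2(FPKM + 1) scale. The authors' deposited tables called Bcl2l11 in culture and Bid and Bcl2l1 in tumours, the last with a ratio of 1.72. Mcl1 and Bcl2 were within 2-fold in both.

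For the 3 members called in the authors' deposited tables, the 250 bases before the most upstream start listed by RefSeq are shown, as the regions next to a start of these genes. RefSeq lists more than 1 start for Bcl2l11 and for Bcl2l1, and gene-level FPKM do not show which was used. They are on GRCm38.p6, another build than the mm9 of the tables, and are written 5′ to 3′ along the gene's strand. Capitals mark matches on either strand to the motifs searched below.

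Bcl2l11, chr2:128125788-128126037, plus strand: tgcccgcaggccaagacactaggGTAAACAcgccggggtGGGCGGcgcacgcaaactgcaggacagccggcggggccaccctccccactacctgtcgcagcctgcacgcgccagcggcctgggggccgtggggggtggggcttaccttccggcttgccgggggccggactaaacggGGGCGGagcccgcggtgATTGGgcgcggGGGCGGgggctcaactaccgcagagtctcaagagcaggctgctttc

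Bid, chr6:120916825-120917074, minus strand: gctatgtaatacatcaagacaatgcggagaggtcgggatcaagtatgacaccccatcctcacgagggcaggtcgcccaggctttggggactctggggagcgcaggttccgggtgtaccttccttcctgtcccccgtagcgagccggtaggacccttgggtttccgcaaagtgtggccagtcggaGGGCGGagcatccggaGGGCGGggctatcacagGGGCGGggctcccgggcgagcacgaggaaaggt

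Bcl2l1, chr2:152831729-152831978, minus strand: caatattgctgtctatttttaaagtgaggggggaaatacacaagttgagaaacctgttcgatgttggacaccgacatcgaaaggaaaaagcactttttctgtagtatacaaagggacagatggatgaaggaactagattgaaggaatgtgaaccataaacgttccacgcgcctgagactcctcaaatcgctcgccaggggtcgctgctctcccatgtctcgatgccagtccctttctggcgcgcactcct

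The RefSeq table held 16 windows of 300 bases, reaching 50 bases past the start, for 9 of the 10 members. Both strands were searched for the FOXO site TGTTTAC, the heat shock core GAANNTTC, the AP-1 site TGANTCA, the E-box CACGTG, the CRE TGACGTCA, the GC box GGGCGG, the CCAAT box CCAAT and the TATA box TATAAA, none of which contains another. The Bcl2l11 window above holds 1 FOXO match, which opens at base -227 counted from the start. A FOXO match was held by 3.65% of 32851 windows of the same length. Among the other members only Bbc3 had a FOXO match, in 1 of its 3 windows. GC boxes were in 10 of the 16 member windows, which belong to 7 members, some with several windows, against 35.7% of all windows. Bid had 3 of them, opening at bases -66, -50 and -33, whereas no Bcl2l1 window held any of the motifs. No member window held the heat shock core (7.86% of all windows), the AP-1 site (7.81%), the CRE (1.79%) or the TATA box (13.6%). A match to these letters is a description and not evidence that a factor binds there. The GC content of the printed windows was 72% for Bcl2l11, 63.6% for Bid and 47.6% for Bcl2l1, with a median of 52.4% over all windows.

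Some values of the whole series bear on every difference below. The SE of a gene's log2 ratio can be read back from the authors' deposited statistic, and it is called the model error here, since it covers no spread between replicates. It belongs to the plain ratio of FPKM, while the log2(FPKM + 1) differences below are smaller for low genes. Beside such a difference the model error looks larger than it is for the ratio. For genes at 10 to 30 FPKM its median was 0.76 in culture and 0.35 in tumours, so a culture value is much less precise than a tumour value. The treated library was 1.05 times as deep as its control in culture and 1.19 times in tumours, judged from 40 and 56 genes with errors that fit 1 fragment on each side. The median difference of all 12676 genes compared in culture was -0.25, and of all 15550 genes in tumours -0.03. Of the Schwann cell markers Sox10, S100b, Foxd3, Ngfr and Erbb3, all but S100b reached 1 FPKM in every culture library, and S100b stayed under 1 FPKM in all 4 libraries.

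**Figure D1:**
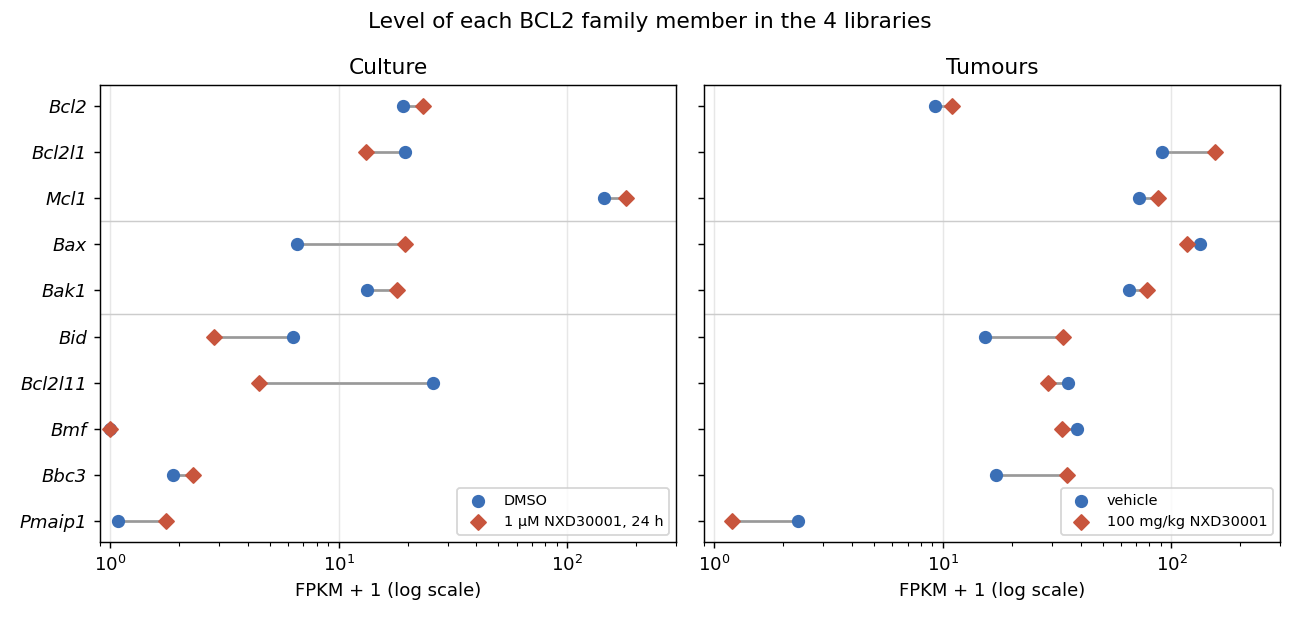
Level of each of the 10 members as FPKM + 1 on a log axis, in culture (left) and tumours (right). Circles are the untreated and diamonds the treated library, 1 library each. The widest gap in culture is that of Bcl2l11 (24.8 and 3.47 FPKM), and Bmf is listed at 0 in both culture libraries.

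The survival genes were the most abundant part of the family in culture. Mcl1, which encodes a short-lived protein that binds BIM, NOXA and BAK (ENSMUSG00000038612, chromosome 3 from 95462779 to 95467099, mm9), was at 143.6 FPKM in DMSO cells and 179.6 FPKM in treated cells. Its log2 difference, which is log2(FPKM + 1) after treatment less the same quantity without it, was 0.32 against a model error of 0.69. Bcl2, the founding survival gene (ENSMUSG00000057329, chromosome 1 from 108434755 to 108610851), was at 18.2 and 22.3 FPKM, a log2 difference of 0.28 against a model error of 0.63. The locus of Bcl2 is also given for D630008O14Rik, at 0 and 0.333 FPKM. Neither the Mcl1 nor the Bcl2 difference exceeds the error the authors' model gives for it.

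Bcl2l1, whose main product BCL-XL is the long survival form (ENSMUSG00000007659, chromosome 2 from 152593052 to 152657464), was lower in treated cells, at 18.5 and 12.1 FPKM. This log2 difference of -0.57 has a model error of 0.53 and was not called in the authors' deposited table. A gene level does not separate BCL-XL from the short, death-promoting form spliced from the same gene. With DMSO, Bcl2l1 and Bcl2 RNA were about equal per transcript length, at 18.5 and 18.2 FPKM, and with NXD30001 their ratio was 0.54. Mcl1 RNA was 7.75 times that of Bcl2l1 with DMSO and 14.8 times with NXD30001.

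Both effector genes were higher in treated cells. Bax (ENSMUSG00000003873, chromosome 7 from 52717072 to 52722185) was at 5.59 FPKM in DMSO cells and 18.4 FPKM in treated cells, a log2 difference of 1.56. Only 5.69% of the genes compared in culture had a difference as high. Its model error was 1.01, which puts the 95% range of the ratio at 0.84 to 12.9, and the authors' deposited table did not call it. Bak1 (ENSMUSG00000057789, chromosome 17 from 27110112 to 27173323) was at 12.2 and 17.1 FPKM, a log2 difference of 0.45 against a model error of 0.77. Its locus is also given for Ggnbp1 and Zbtb9, so its reads are not assigned with certainty. Bax was thus below Bak1 with DMSO, at a ratio of 0.46, and near it with NXD30001, at 1.08.

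The BH3-only genes were sparse in culture, and the one that was abundant with DMSO was much lower with NXD30001. Bcl2l11, which encodes BIM (ENSMUSG00000027381, chromosome 2 from 127951774 to 127988283), was at 24.8 FPKM in DMSO cells, next after Mcl1 among the 10 members, and at 3.47 FPKM in treated cells. The log2 ratio of -2.84 has a model error of 0.73 and a q of 0.0047 in the authors' deposited table. The log2 difference was -2.53. A difference as low was found for 4.78% of the compared genes. Set against Mcl1, Bcl2l11 RNA went from a ratio of 0.17 to one of 0.019, a comparison inside each library that no scaling between libraries changes.

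Bid, whose protein is cut by caspase-8 and links death receptors to mitochondria (ENSMUSG00000004446, chromosome 6 from 120842872 to 120866871), was at 5.34 and 1.84 FPKM. The log2 ratio was -1.53 against a model error of 0.97 and was not called. The log2 difference was -1.16. Once the shift of all genes was taken off, it was -0.90 and no longer past 2-fold. Bbc3, which encodes PUMA, a target gene of p53 (ENSMUSG00000002083, chromosome 7 from 16894965 to 16903554), was near the floor at 0.883 and 1.31 FPKM and passed the minimum only through the treated library.

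The remaining pair of BH3-only genes was below the minimum in culture. Pmaip1, which encodes NOXA, a partner of MCL1 (ENSMUSG00000024521, chromosome 18 from 66618187 to 66625204), was at 0.0833 and 0.751 FPKM, a ratio of 9.02 against a model error of 1.28 on the log2 scale. Bmf, whose protein rests on the cytoskeleton (ENSMUSG00000040093, chromosome 2 from 118354493 to 118375423), was listed at 0 in both culture libraries. Read by role, the 5 BH3-only genes summed to 31.1 FPKM in DMSO cells and 7.38 FPKM in treated cells, while the survival genes summed to 180.3 and 214 FPKM. The BH3-only sum per survival sum was 0.17 with DMSO and 0.034 with NXD30001. Bcl2l11 made up most of the BH3-only sum with DMSO, and Mcl1 most of both survival sums. Bid was lower too, while Bbc3 and Pmaip1 were higher in treated cells.

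As a family in culture, 3 of the 8 compared members were past 2-fold in either direction, beside 37.5% of all compared genes. Of these, 1 was at least 2-fold higher, beside 12.6% of all compared genes. At least 2-fold lower were 2 members, beside 24.8% of all compared genes. The authors' deposited table called 1 member, beside 9.89% of all genes, and it was lower (7.14% of all genes) and not higher (2.75%). These shares are near those of all genes. The median difference of the compared members was 0.29, beside -0.25 for all genes, with 5 above 0 and 3 below. It was -0.14 without Bcl2 and Bak1, whose loci are shared with other rows, so its direction rests on them.

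Proliferation RNA moved strongly beside these culture values. The markers Mki67, Top2a, Ccnb1 and Aurkb were all lower, 4 of 4 called, and their summed level went from 1103 to 45.6 FPKM. Most markers of other cell types were nearly missing from culture, with all 5 neutrophil markers and 7 of 8 lymphoid and leukocyte markers listed at 0 in each library. All 4 erythroid markers with an estimate were at 0 too. The sums were 0.0575 and 2.20 FPKM for endothelial, 2.44 and 2.04 FPKM for macrophage and 0.082 and 0.146 FPKM for mast cell markers. The treated endothelial sum was nearly all Tek, at 0.0324 and 2.18 FPKM and called higher. Both macrophage sums were nearly all Cd68, at 2.32 and 1.93 FPKM. The fibroblast list was high only through Col1a1, at 346 and 711 FPKM. Of 6 compared Schwann markers 5 were lower and 1 was higher and called. The part that proliferation or Schwann cell state had in the differences of the members was not tested.

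**Figure D2:**
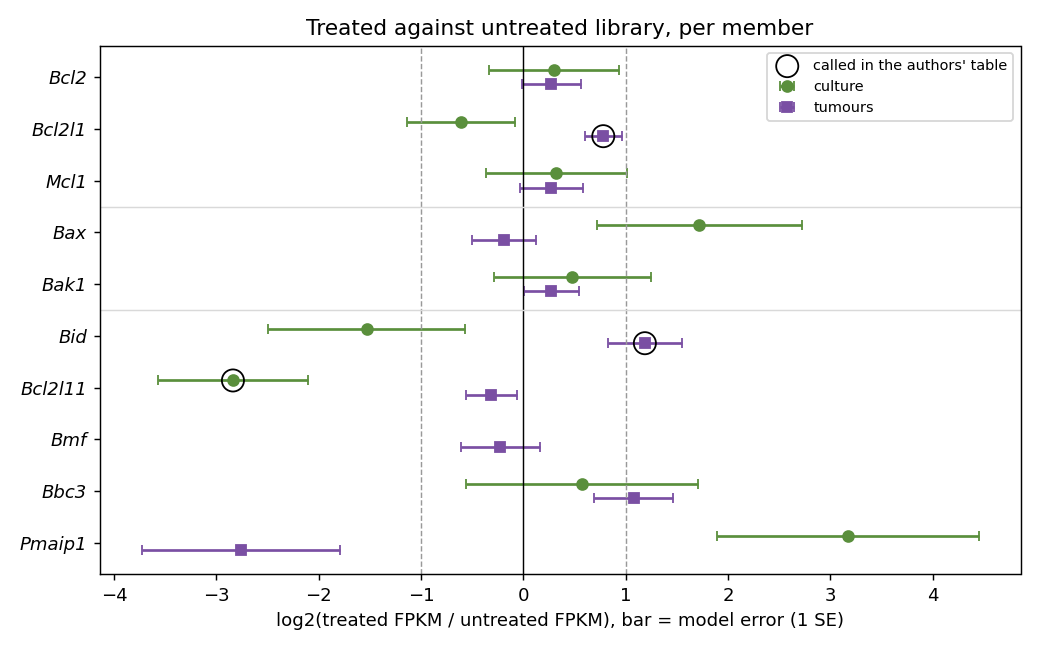
Log2 of treated over untreated FPKM without a pseudocount for each member, in culture (circles) and tumours (squares), 1 library per group. Bars are 1 model error (SE) from the authors' deposited statistic, rings mark members called in the authors' tables, dashed lines mark 2-fold, and Bmf has no culture ratio. The ringed points are Bcl2l11 in culture (-2.84) and Bcl2l1 (0.78) and Bid (1.19) in tumours.

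In tumours all 3 survival genes were higher in the treated library, and only Bcl2l1 was called. Bcl2l1 was at 89.5 FPKM in the vehicle tumour and 154 FPKM in the treated one, a log2 difference of 0.77 against a model error of 0.18, with a q of 0.00094 in the authors' deposited table. The 95% range of its ratio from that error was 1.35 to 2.19, so it lies above 1 while the 2-fold mark lies inside it. Mcl1 was at 71.2 and 86.1 FPKM and Bcl2 at 8.22 and 9.93 FPKM, each with a ratio of 1.21. Their differences of 0.27 and 0.25 are smaller than their model errors of 0.31 and 0.29. Within the vehicle tumour Bcl2l1 RNA was 10.9 times that of Bcl2, and in the treated tumour 15.5 times.

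The order of the survival genes in the tumours was not that of culture. Mcl1 RNA was 0.80 times that of Bcl2l1 in the vehicle tumour and 0.56 times in the treated tumour, whereas in both culture libraries Mcl1 was the higher gene. The tables were normalized separately and the tumours hold host cells, so this is set side by side only as a ratio inside each library, with no test.

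The effector genes were abundant in both tumours and lay close between them. Bax was at 132 FPKM in the vehicle tumour and 116 FPKM in the treated one, a log2 difference of -0.19 against a model error of 0.32. Bak1 was at 64.1 and 77.5 FPKM, a log2 difference of 0.27 against a model error of 0.27. At the locus it shares, Ggnbp1 was at 86.8 and 17.3 FPKM and called lower, so the level of Bak1 depends on how the authors' software divided reads there. Bax RNA was 2.06 times that of Bak1 with vehicle and 1.5 times with NXD30001. The summed effector RNA per summed survival RNA was 1.16 and 0.77.

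Of the BH3-only genes, Bid and Bbc3 were higher in the treated tumour and 3 others lower. Bid was at 14.2 and 32.4 FPKM, a log2 difference of 1.13 against a model error of 0.36, with a q of 0.036 in the authors' deposited table. Bbc3 was at 16.0 and 33.8 FPKM, a log2 difference of 1.03 against a model error of 0.39, and it was not called (q of 0.148). Differences as high as these were found for 5.93% and 6.95% of the genes compared in tumours. Both genes lie just above the 2-fold mark, and the 95% range of the ratio from the model error was 1.40 to 3.71 for Bid and 1.24 to 3.58 for Bbc3.

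The BH3-only genes most abundant in the vehicle tumour were within 2-fold. Bmf was at 37.4 and 32.0 FPKM, a log2 difference of -0.22 against a model error of 0.39. Bcl2l11 was at 34.4 and 27.7 FPKM, a log2 difference of -0.30 against a model error of 0.25. Bcl2l11, past 2-fold in culture, was thus within it in the tumours. Pmaip1 passed the minimum only through the vehicle library, at 1.32 and 0.194 FPKM. Its log2 difference was -0.96, a scale on which low genes change less than their ratio, and its log2 ratio was -2.76 against a model error of 0.97 and no call. With Bid and Bbc3 higher and the other members of the group lower, the BH3-only sum was 103 and 126 FPKM, or 0.61 and 0.50 per survival sum.

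As a family in tumours, 2 of 10 members were past 2-fold, beside 14.3% of all compared genes. Both were higher, beside 7.32% of all genes, and none was 2-fold lower, beside 6.93%. Called in the authors' deposited table were also 2 (5.59% of all genes), both higher (3.14%) and 0 lower (2.45%). The median difference of the members was 0.26, beside -0.03 for all genes, with 6 above 0 and 4 below, and it was 0.042 without Bcl2 and Bak1. Counts this small are not read as a property of the family.

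Markers of several cell types differed between the tumours beside these values. Schwann markers were higher in the treated tumour, with 6 of 7 called. Endothelial markers summed to 66.3 and 23.3 FPKM with 6 of 6 lower, macrophage markers to 326 and 182.5 FPKM with 6 of 6 lower, and lymphoid and leukocyte markers to 19.6 and 6.46 FPKM. Among the last, Cd3e, Cd8a and Ms4a1 were listed at 0 in both tumours. Fibroblast markers summed to 2084 and 1446 FPKM, erythroid markers to 315 and 5.10 FPKM, neutrophil markers to 11.2 and 52.3 FPKM, mast cell markers to 6.85 and 33.4 FPKM, and proliferation markers to 202 and 222 FPKM. In each of these lists 1 compared gene went the other way, in turn Lum, Alas2, Csf3r, Kit and Ccnb1. Alas2, at 0.610 and 4.72 FPKM, held most of the treated erythroid sum. Col1a1, at 1576 and 1155 FPKM, held most of both fibroblast sums. In bulk RNA fewer cells of a type and less RNA per cell cannot be told apart, and the part of these cell types in the differences of Bid, Bbc3 and Bcl2l1 was not tested.

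**Figure D3:**
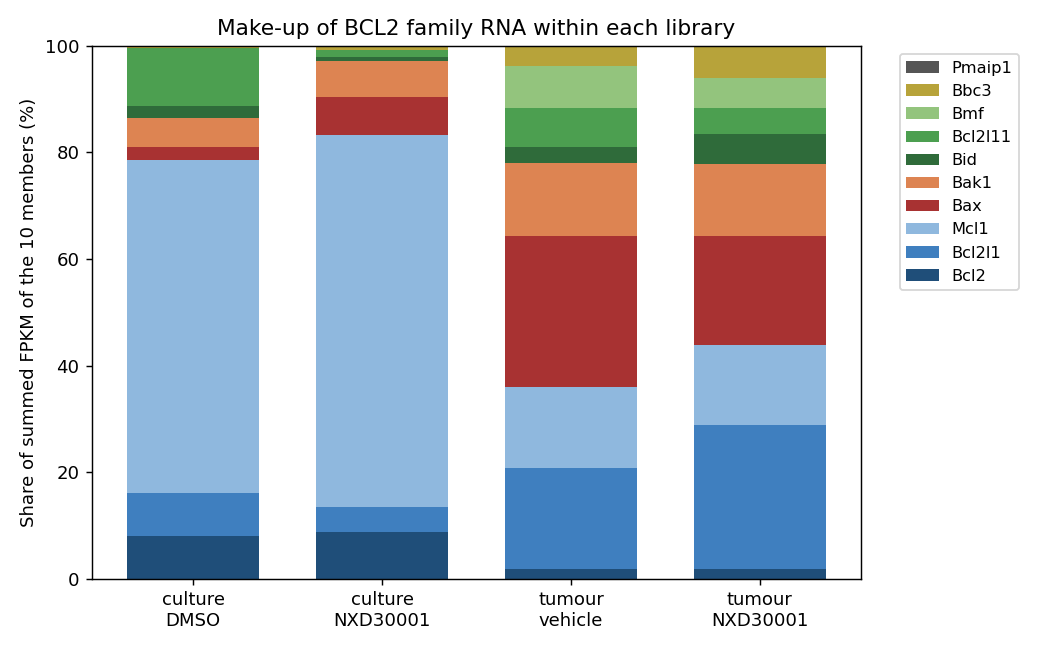
Share of each member in the summed FPKM of the 10 members, as stacked bars for the 4 libraries, 1 library per bar. Mcl1 makes up 62.6% and 69.9% of the culture bars and 15.2% and 15.1% of the tumour bars, and Bcl2l11 makes up 10.8% of the DMSO bar and 1.35% of the treated culture bar.

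Shares inside a library show the make-up of the family without scaling between libraries. In culture, Mcl1 held 62.6% of the summed FPKM of the 10 members with DMSO and 69.9% with NXD30001. Survival genes together held 78.7% and 83.3%, effectors 7.78% and 13.8%, and BH3-only genes 13.6% and 2.87%. Treated culture thus had a larger effector share and a smaller BH3-only share. In tumours the survival share was 36.1% with vehicle and 43.9% with NXD30001, the effector share 41.9% and 34.0%, and the BH3-only share 22.1% in both. The even BH3-only share in tumours covers shifts inside the group, since Bid went from 3.04% to 5.69%, Bbc3 from 3.42% to 5.93%, Bmf from 7.99% to 5.63% and Bcl2l11 from 7.34% to 4.87%. No interval can be given for these shares, since the tables give no counts.

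Beyond the 10 members, 15 other genes of the family were in the tables, and 6 of them passed the minimum in culture. The survival genes Bcl2a1a, Bcl2a1c, Bcl2a1d and Bcl2l10 were listed at 0 in both culture libraries, as was Bik. Bnip3, a mitochondrial protein gene of the hypoxia response and of mitophagy, was at 265 and 20.04 FPKM and was the only one of these genes called, lower, and its relative Bnip3l was at 173 and 83.2 FPKM. Becn1, an autophagy gene with a BH3 domain, was at 29.0 and 43.9 FPKM, at a locus shared with 6 other rows. Bok, another effector-like gene, was at 0.249 and 1.36 FPKM, Bad at 0.828 and 0.360 FPKM and Hrk at 0.173 FPKM and listed at 0. The atypical genes Bcl2l12 (6.34 and 4.92 FPKM) and Bcl2l13 (4.93 and 3.65 FPKM) were within 2-fold, Bcl2l15 at 0.251 FPKM and listed at 0, and Bcl2l14 listed at 0 in both. Of the 6 compared, 2 were at least 2-fold lower on the log2(FPKM + 1) scale, beside 24.8% of all compared genes. None was 2-fold higher, beside 12.6%, and 1 was called, beside 9.89%. On this scale Bok differed by 0.92 although its ratio of FPKM was 5.48. Relative to the median of all genes only Bnip3 stayed past 2-fold.

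In tumours 11 of these other family genes were compared, and 2 were at least 2-fold lower, beside 6.93% of all compared genes. None was 2-fold higher, beside 7.32%, and none was called, beside 5.59%. The lower genes were the A1 copies Bcl2a1a (6.24 and 1.34 FPKM) and Bcl2a1c (1.65 and 0.230 FPKM), and Bcl2a1d was at 5.36 and 2.85 FPKM. A1 is known as a survival gene of blood cells, and its copies are near-identical, so that single levels are uncertain. Beside them Ptprc, which encodes the leukocyte antigen CD45, was at 17.8 and 4.53 FPKM, not called and with a model error of 1.19. Leukocyte lists differed in direction. The macrophage sum was lower in the treated tumour, while the neutrophil sum (11.2 and 52.3 FPKM) and the mast cell sum (6.85 and 33.4 FPKM) were higher. The part of leukocytes in the lower A1 levels was not tested. Bok was at 29.8 and 39.6 FPKM, Bad, a BH3-only gene of growth factor signalling, at 42.0 and 48.6 FPKM and Bik at 3.17 and 1.99 FPKM. Bnip3 was at 126 and 190.5 FPKM, Bnip3l at 68.0 and 39.6 FPKM, Becn1 at 90.2 and 125 FPKM, Bcl2l12 at 21.8 and 33.04 FPKM and Bcl2l13 at 9.44 and 9.79 FPKM. Bcl2l15 (0.763 and 0.969 FPKM) and Hrk stayed under the minimum, and Bcl2l10 and Bcl2l14 were listed at 0.

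**Figure D4:**
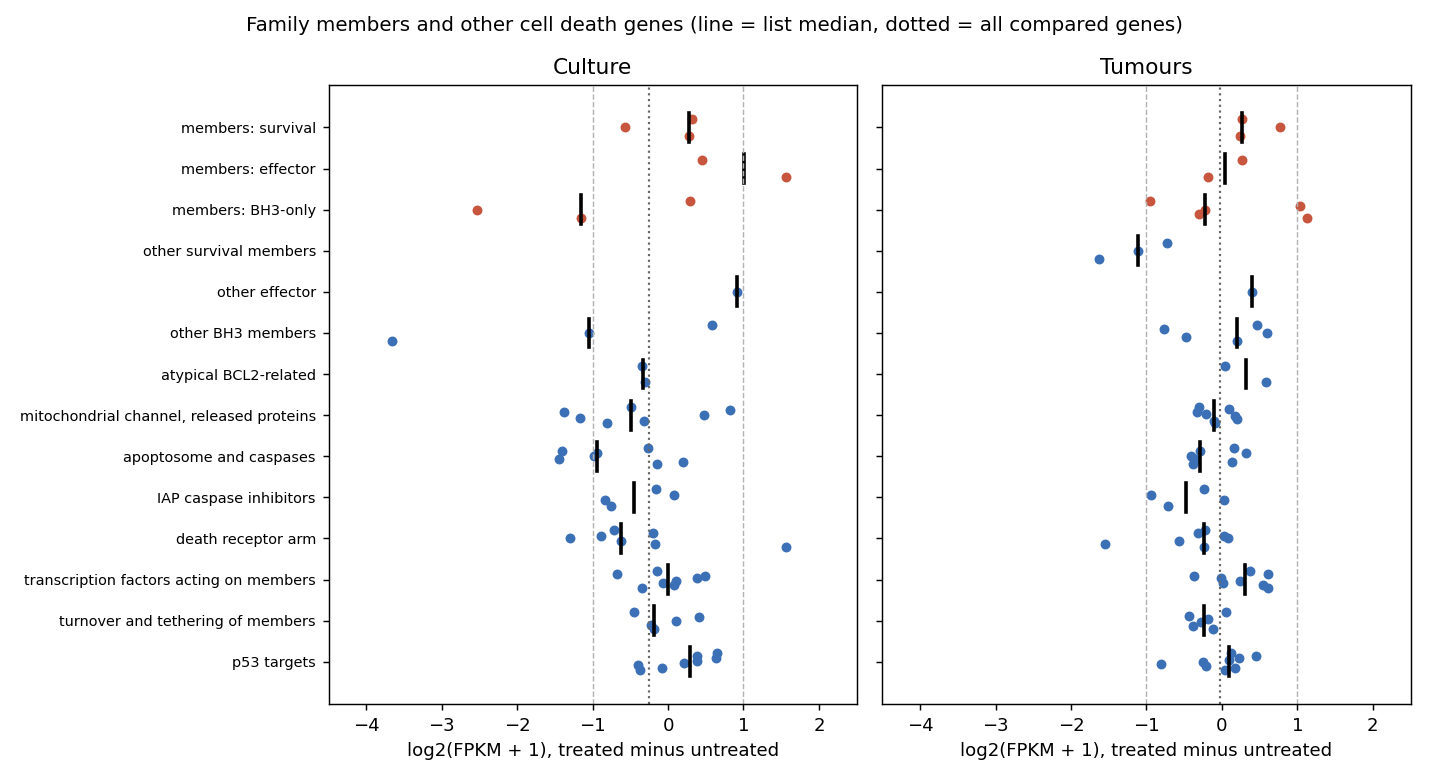
Difference of log2(FPKM + 1), treated minus untreated, of each compared gene in the member groups (red) and in other cell death lists (blue), for culture (left) and tumours (right), 1 library per group. Black bars are list medians, the dotted line is the median of all compared genes and dashed lines mark 2-fold. In culture the caspase list has its median at -0.95 and in tumours at -0.29.

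Downstream of the family, 6 of 7 apoptosome and caspase genes were lower in treated culture, or 5 relative to the median of all genes, while 40.6% of all compared genes were above 0. At least 2-fold lower were 2 of the 7, beside 24.8% of all compared genes, and the list had a median of -0.95 beside -0.25 for all genes. Casp2 was at 24.8 and 8.76 FPKM, and Casp6 differed by -0.98. None was called in the authors' deposited table, and once the median of all genes was taken off, Casp2 remained past 2-fold at -1.15. In tumours the list had a median of -0.29 with no member past 2-fold, and Casp6 and Apaf1 differed by -0.41 and -0.38.

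Proteins that mitochondria release, and the channels of their outer membrane, differed in both directions. In culture 2 of 7 compared genes were at least 2-fold lower, beside 24.8% of all compared genes. They were Diablo, an antagonist of caspase inhibitors, at 21.3 and 7.55 FPKM and the channel gene Vdac3 at 154 and 67.9 FPKM. Of these, Diablo alone stayed past 2-fold relative to the median of all genes. Vdac1 differed by -0.82 and the protease gene Htra2 by 0.82, and Cycs, cytochrome c, was at 57.6 and 80.8 FPKM. Endog, an endonuclease gene, was called in the authors' deposited table although it was at 0.0627 and 0.0196 FPKM, under the minimum. In tumours all 8 were within 2-fold, from -0.33 for Htra2 to 0.21 for Vdac3, with Aifm1 at -0.30 and Diablo at -0.21.

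The 4 inhibitor of apoptosis genes were within 2-fold in both comparisons on the log2(FPKM + 1) scale, though Birc3 in tumours, at 7.02 and 3.20 FPKM, was 2.20 times lower as a ratio. Xiap, whose protein blocks caspases directly, was at 32.3 and 18.7 FPKM in culture and at 31.2 and 18.7 FPKM in tumours, log2 differences of -0.76 and -0.71 with model errors of 0.51 and 0.27. Birc2 differed by -0.83 in culture and 0.03 in tumours, Birc3 by 0.08 and -0.93, and Birc6 by -0.16 and -0.24. Xiap was thus lower in both tables and called in neither.

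In the death receptor arm, which reaches the mitochondria through Bid, the list medians were -0.62 in culture and -0.24 in tumours, beside -0.25 and -0.03 for all genes. In culture 6 of 7 were lower, or 4 relative to the median of all genes, and 1 was at least 2-fold higher, the receptor gene Fas, at 1.96 FPKM in treated cells and listed at 0 in DMSO cells. The adaptor gene Fadd (4.76 and 1.34 FPKM) was the 1 gene at least 2-fold lower, at -1.30, or -1.05 relative to the median of all genes. The adaptor gene Tradd (3.42 and 1.38 FPKM) was lower within 2-fold on this scale, as was Cflar, an inhibitor of caspase-8, at 111 and 67.5 FPKM. In tumours the TRAIL receptor gene Tnfrsf10b was at 4.55 and 0.895 FPKM and was the only one of the 7 called, beside 5.59% of all genes. Its log2 difference was -1.55, and its log2 ratio was -2.34 against a model error of 0.61. Tnfrsf1a was at 286 and 193 FPKM, and Ripk1 and Fas differed by -0.32 and -0.24. Casp8, whose product cuts BID, was at 16.1 and 13.3 FPKM in culture and 19.4 and 21.9 FPKM in tumours.

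RNA of transcription factors known to act on the members stayed within 2-fold for all 8 compared genes in both. In culture the largest differences were those of E2f1 (-0.68), Atf4 (0.49), Ddit3 (0.39) and Trp53 (-0.34), and in tumours those of E2f1 (0.62), Trp53 (0.61), Foxo1 (0.54) and Atf4 (-0.37). Foxo3, a factor known to act on Bcl2l11, was at 18.0 and 17.1 FPKM in culture and 33.7 and 34.1 FPKM in tumours. Trp73 was listed at 0 in all 4 libraries. These values are RNA levels and do not show the activity of a factor.

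Bax, Bbc3 and Pmaip1 are also target genes of p53, and a list of other p53 targets was set beside them. Of the 8 listed targets compared in culture none was past 2-fold, beside 37.5% of all genes. Their median was 0.29, beside -0.25 for all genes, and relative to the latter 6 of the 8 were higher. The most distant from 0 were Aen (0.65), Zmat3 (0.64), Ccng1 (-0.40) and Sesn2 (0.39). Fas was kept in the death receptor list and is not counted here. Cdkn1a, the p21 gene, was at 53.9 and 41.5 FPKM and Mdm2, the p53 ligase gene, at 52.5 and 49.5 FPKM. In tumours, where Bbc3 was 2.11 times higher, none of the 9 listed targets compared was past 2-fold, beside 14.3% of all genes. Their median was 0.10, beside -0.03 for all genes. The most distant were Trp53inp1 (-0.81), Aen (0.45), Sesn2 (-0.26) and Phlda3 (0.22).

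Genes that act on the turnover or location of the family's proteins were within 2-fold in both comparisons. The dynein light chain genes Dynll1 and Dynll2, whose proteins tether BIM and BMF, differed by 0.41 and -0.45 in culture and by -0.44 and 0.06 in tumours. Huwe1, a ligase gene for MCL1, differed by -0.19 and -0.38. Btrc differed by -0.22 in culture, and Fbxw7 and Gsk3b by -0.28 and -0.18 in tumours. The authors' status was FAIL for Usp9x and Fbxw7 in culture and LOWDATA for Btrc in tumours, and these were not used. Among the non-member genes named with values, the loci of Bcl2a1d, Bad, Bcl2l12, Casp2, Apaf1, Diablo, Htra2, Endog, Birc6, Fadd, Foxo3, Ddit3, Sesn2, Huwe1, Fbxw7, Btrc and Gsk3b are also given for other rows. The same holds for Becn1 and Trp73 and for the markers Alas2, Ms4a1 and Top2a. How the reads were divided at these loci is uncertain.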

How the data were processed

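RNA came from Trizol and kit extraction and the libraries from an Illumina procedure, per the labels' protocols. CASAVA, TopHat 1.2.0, Cufflinks 1.0.2, Cuffdiff and build mm9 are named, per the submitters' processing notes, without a statement on strand. The authors deposited levels in FPKM. Per the file headers, they added the fold as a ratio and as its natural log, a test statistic, which is a score and the source of the model error below, a p-value and a q-value. That q reached 2.05, so it served only as a score beside their calls, all of which had q of at most 0.0499. All sample columns were mapped by title.

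Rows with status OK that reached 1 FPKM in at least 1 library were compared as log2(FPKM + 1), treated minus untreated, with Python 3.11.15 and pandas 2.3.3. No test was run with 1 library per group. The authors made each table separately, and levels were set side by side only inside a table. The model error is the authors' natural log fold over their statistic, on the log2 scale. It covers no biological spread, and 95% ranges are 1.96 such errors. Depth per library is not given by FPKM. Loci are the authors', with starts moved to count from 1, since end minus start equalled the GENCODE length for 10580 of 19955 single-gene loci. The difference script was run on simulated data with known changes and no noise, which checks its arithmetic only and not the precision of these data.

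Members and lists were chosen with earlier results of these data known. Named were all members, every gene of the other family lists and up to 4 of the most distant or called genes of each other list. Bcl2l2 and Bcl2a1b were not analysed here, and some genes of the other lists are not reported here.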

Additional observations from a re-analysis of the deposited data

Results flagged for a closer look

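For 3 of the 8 members compared in both tables the difference had opposite signs in culture and in tumours. The share of all genes with opposite signs was not computed. Of all compared genes 40.6% were above 0 in culture and 47.3% in tumours, and the count is not read as a property of the family. Pmaip1, under the minimum in culture, also had opposite signs, at 0.69 and -0.96. With 1 library per group the difference between the comparisons was not tested. Bid was at -1.16 in culture and 1.13 in tumours, 2.29 apart on the log2 scale, and Bcl2l1 at -0.57 and 0.77, 1.35 apart. Bax was at 1.56 in culture and -0.19 in tumours, which is -1.75 as tumours minus culture. The culture values of these 3 genes were not called in the authors' deposited table. Cell types, exposure and normalization differed between the 2 tables and cannot be told apart from the treatment response.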

How the results depend on the processing

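The settings tried were a pseudocount of 0.1 FPKM, a plain ratio, no minimum level, a minimum of 5 FPKM, centring on the median of all compared genes, scaling to the upper quartile, and leaving out rows that share a locus. Of 120 values of single members, 118 moved by less than the model error, and no compared member changed sign. Much of this was fixed in advance. The settings that only change which rows are compared leave a member's value as it is. Neither a pseudocount nor a plain ratio can turn a sign, so only centring and scaling could have done so. Centring left 1 member at least 2-fold lower in culture, where 2 were counted, since Bid came to -0.90. It also moved the 2-fold counts of all culture genes from 12.6% higher and 24.8% lower to 17.8% and 18.4%. With a pseudocount of 0.1 FPKM and with a plain ratio, 1 member, Pmaip1, was at least 2-fold lower in tumours, at -2.27 and -2.76. Without rows that share a locus, which drops Bcl2 and Bak1, the median of the members went from 0.29 to -0.14 in culture and from 0.26 to 0.042 in tumours, and centring gave 0.54 in culture. These shifts are smaller than the median model errors of single members, 0.75 and 0.31, which are not the error of a median over members. The direction of the culture median is not stable. The remaining counts stayed within 1.5 times and the remaining medians within those errors. Leaving out libraries was not possible with 1 per group. No paired analysis was possible because each group has 1 library. The precision is limited by this single library and by the model errors above.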
